A study of Mus musculus with 12 samples.

Results

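Gene expression of mouse lymphoma cells recovered from lymph nodes was compared with that of the same lymphoma kept in culture. The comparison used 8 of the 12 RNA libraries of the study, chosen by title: 4 of E_mu-Myc lymphoma cells taken directly from culture and 4 of E_mu-Myc lymphoma cells sorted from lymph nodes of C57BL/6J mice on day 11 after injection of the tumor, in the model of spread by lymphatic vessels. The 4 remaining libraries, of cells that had spread through the blood and were collected on day 18, entered the fit for its estimate of the spread and are not described. E_mu-Myc (Eµ-Myc) lymphoma is a B cell tumor of transgenic mice in which the immunoglobulin heavy chain enhancer drives Myc, so both groups carry that transgene, and the labels name 1 cell line for all libraries. For the cultured libraries the tissue label also reads lymph node, which their titles contradict, and groups were taken from the titles. The marker used for the sort and the age of the mice are not given in the labels. Nothing in them tells if replicates came from different mice or culture dishes, so each p-value reflects the spread among the libraries of the fit, which may be technical. Recovery from the animal, time in it and the sort itself all separate the groups and cannot be told apart.

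Interferons are secreted signals of antiviral defence that act through receptors, JAK kinases and STAT and IRF factors, and switch on a broad set of antiviral genes. Animal cells adjust cholesterol and unsaturated fatty acid synthesis to supply through the SREBP factors, which raise the enzymes and sterol uptake when sterol is short. Lymphocytes enter, stay in and leave lymph nodes by means of selectins, chemokine receptors, integrins and a receptor for sphingosine phosphate. Levels below are CPM (assigned counts scaled to a common library size with TMM factors) in culture 1 to 4 and lymphatic 1 to 4, means carry SD over 4 libraries, and changes are log2 of lymphatic over culture ± SE. Levels are compared between libraries and not between genes, since CPM is not corrected for length. A gene was called when its adjusted p in edgeR was under 0.05.

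The libraries held 5655422 to 12738568 assigned counts in culture and 12399951 to 25302016 in the lymphatic group. The first principal component, with 58.9% of the variance, separated the groups, and the second, with 23.1%, set lymphatic 4 at 65.2 against −46.9 to −18.0 for lymphatic 1 to 3. In lymphatic 4, 679 genes lay at least 2-fold above all of the other 3 lymphatic libraries and 1144 at least 2-fold below, against 6 to 54 and 40 to 177 in each of the remaining 7 libraries within its own group. Ribosomal protein genes took 15.9% of its counts and 7.59% to 9.85% of the counts of the other 7 libraries. The difference followed transcript length: the median log2 gap of lymphatic 4 to the mean of lymphatic 1 to 3 was 0.81 for 1697 genes whose longest annotated transcript is under 1000 bases and −0.73 for 2520 genes of 5000 bases or more. Short transcripts led the high end, such as that of the ribosomal protein gene Rps27rt, at 12.4, 11.6, 9.31 and 206 CPM in lymphatic 1 to 4, and that of Dpm3, a small subunit of dolichol phosphate mannose synthase, at 5.75, 2.11, 9.23 and 50.03. Long transcripts led the low end, such as those of the Mediator subunit Med12 at 88.4, 88.5, 98.3 and 4.83 CPM, the deubiquitinase Usp9x at 197, 214, 173 and 24.1 and the DNA damage kinase Atm at 141, 179.9, 144 and 20.6. Lymphatic 1 to 3 lay far above lymphatic 4 in Med12, Usp9x and Atm. Where leaving out lymphatic 4 ended or added a call of a gene described below, or moved its printed change by over 1.5-fold, the value without it is given.

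**Figure D1:**
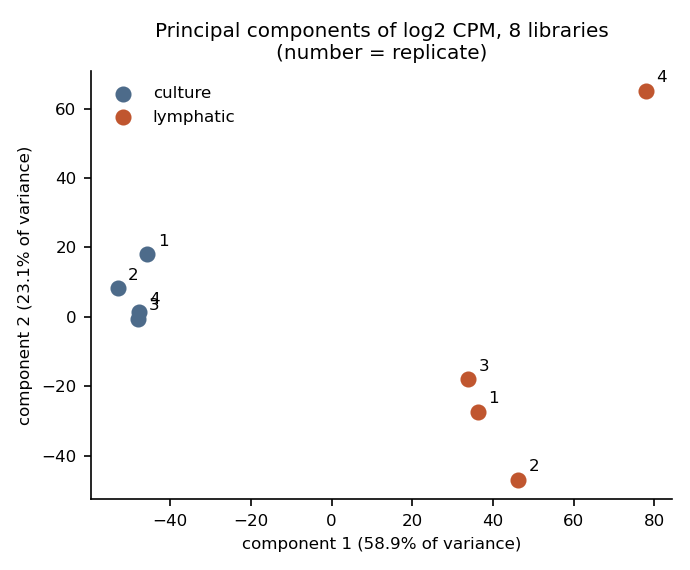
Principal components of log2 CPM over all tested genes for the 4 culture and 4 lymphatic libraries; axes are component scores and numbers mark replicates. Culture libraries lie close together at the left, lymphatic 1 to 3 at the lower right, and lymphatic 4 apart at the upper right, at 65.2 on the second component.

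**Figure D2:**
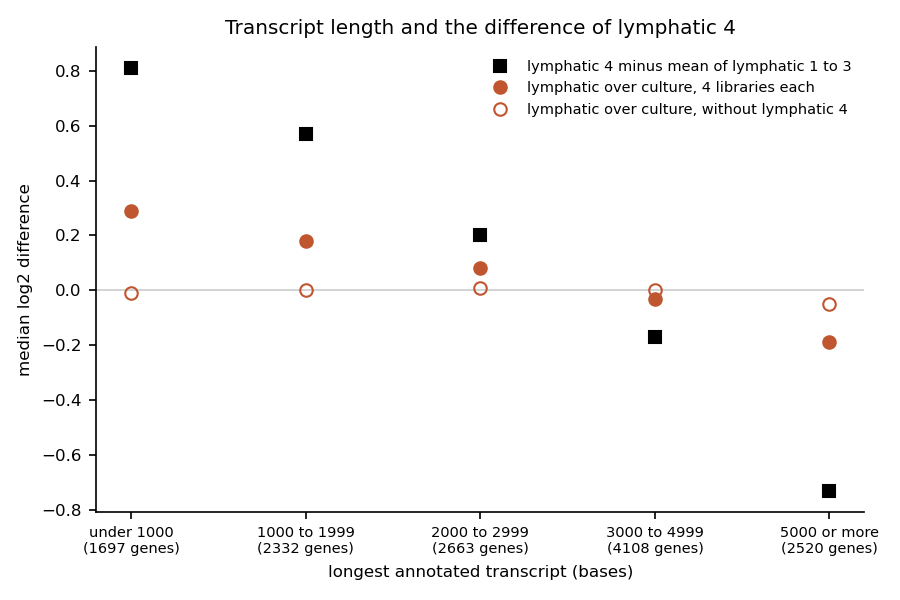
Median log2 difference of genes grouped by the length of their longest annotated transcript: lymphatic 4 against the mean of lymphatic 1 to 3 (black squares), and lymphatic over culture with (filled circles) and without (open circles) lymphatic 4. The squares fall from 0.81 for the shortest to −0.73 for the longest genes, and the open circles stay between −0.05 and 0.01.

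Both groups carried B cell markers. The listed markers summed to 2988 to 3024 CPM in culture and 2748 to 3129 in the lymphatic libraries, with overlapping groups. Pax5, the factor that holds B cell identity, measured 508, 571, 566 and 552 CPM in culture and 479.6, 396, 475 and 329.6 in lymphatic libraries. Pax5 changed by −0.39 ± 0.12 (adjusted p = 0.0324), a call that was lost without any of culture 2, culture 3, culture 4 or lymphatic 2 (adjusted p up to 0.0838). Markers of other cells were summed as well, and sums of different lists are not compared with each other. T cell markers summed to 39.2 to 150.8 CPM in the lymphatic libraries and 2.26 to 6.91 in culture, without overlap (exact permutation test, two-sided p = 0.0286, the smallest that 4 against 4 libraries allow, and 0.0857 adjusted over 18 library measures). All 19 tested T cell markers were called higher, or 18 without lymphatic 4. Trbc2, a T cell receptor constant gene, had 0 counts in culture and 2.91, 4.63, 5.99 and 18.8 CPM in lymphatic 1 to 4, highest in lymphatic 4. Cd3e had 1.08, 2.23, 2.76 and 6.02 CPM in lymphatic 1 to 4 and at most 0.346 in culture, and Trac 2.77, 3.43, 4.10 and 12.1 and at most 0.467. Lyz2, a lysozyme of myeloid cells, had 0 counts in culture and 11.2, 35.9, 21.3 and 42.1 CPM in the lymphatic libraries, at least 361-fold higher against a floor of 3 counts over the group. Of 9 tested myeloid markers 6 rose and 3 fell, and the whole myeloid list summed to 66.8 to 141 CPM against 31.4 to 42.5 in culture. Csf1r fell, from 8.54 ± 1.73 to 3.76 ± 0.769 CPM, and C1qa had 0 counts in culture and 0.473, 0.837, 0.789 and 2.87 CPM in lymphatic 1 to 4. Defining markers of NK cells (Ncr1) and fibroblasts (Col1a1) were at or near 0 in all 8 libraries, and the endothelial Cdh5 measured 1.89 ± 0.230 CPM in culture and 1.52 ± 0.890 in the lymphatic group. The summed level of all NK cell markers listed was nevertheless 18.7 to 22.9 CPM in culture and 1.89 to 12.7 in the lymphatic libraries, and that of stroma and endothelium markers 121 to 133 and 191 to 257 (each without overlap, p = 0.0286 and 0.0857 adjusted in the same exact permutation test). Most of the culture NK sum was Klrb1c, at 18.7, 18.6, 22.7 and 20.7 CPM in culture 1 to 4. Klrb1c measured 0.271, 0.837, 0.946 and 0.899 CPM in lymphatic 1 to 4, where the NK sum was 1.89, 4.63, 4.42 and 12.7. Most of the lymphatic NK sum thus came from other listed NK markers, which were too low to pass the expression filter. Their summed level was higher in each lymphatic library than in culture, and highest in lymphatic 4. Most of the stroma and endothelium sum was Vim and Pecam1 in both groups. Vim changed by 1.20 ± 0.21 and Pecam1 by 0.38 ± 0.12. Cultured lymphoma cells held all of Klrb1c, Vim and Pecam1, so these sums do not measure NK cells or stroma alone. Sums of dendritic, plasma and erythroid markers overlapped between the groups. Markers of other cells were named after their values were seen. In these bulk samples, numbers of cells of a type and RNA per cell, that of lymphoma cells included, cannot be told apart. The order of lymphatic libraries in the T cell markers is given below beside the gene groups that share it, and the part of other cells in those groups was not tested.

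Of 13535 tested genes 26.4% were called, 1816 higher (13.4%) and 1753 lower (13.0%) in the lymphatic group. Changes of at least 2-fold numbered 646 higher (4.77%) and 758 lower (5.60%). Large changes leaned upwards: 153 genes rose and 28 fell by at least 16-fold. All 4 lymphatic libraries lay above all 4 culture libraries for 1971 genes (14.6%) and below them for 2099 (15.5%). The counts of each gene list below stand beside these shares, and a share near 13.4% higher or 13.0% lower is no result about a list. Without lymphatic 4, 2440 genes (17.7%) rose and 2468 (17.9%) fell among 13768 tested. Of the genes called with all libraries and tested in both fits, 1731 of 1815 higher and 1732 of 1753 lower calls were kept, and the call changed direction in 0 of them.

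Interferon-induced antiviral effectors were higher in the lymphatic group. Of 50 tested, 45 rose, against 13.4% of all tested genes, and 42 of these had all lymphatic above all culture libraries. The list's median log2 change was 2.75, and 2.75 without lymphatic 4, where the median of all tested genes was 0.04. The gene that fell, Sp140, a nuclear body protein named after its value was seen, changed by −0.65 ± 0.14 (adjusted p = 0.00317). Stretches of the promoters of the 4 risen antiviral genes with the largest rise whose promoter holds the core of the interferon-stimulated response element, GAAA, any 2 bases and GAAA on either strand, are shown because they carry the sequence by which IRF and STAT factors are known to act. They come from RefSeq on GRCm38.p6, are written 5′ to 3′ on the strand of the gene, and have the matches in capitals, overlapping matches being joined.
Ifitm3, chr7:141010715-141010787, minus strand: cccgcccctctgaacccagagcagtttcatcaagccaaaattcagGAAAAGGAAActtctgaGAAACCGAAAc
Oas1a, chr5:120907496-120907590, minus strand: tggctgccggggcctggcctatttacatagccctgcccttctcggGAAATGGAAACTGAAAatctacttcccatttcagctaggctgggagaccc
Oas3, chr5:120777680-120777779, minus strand: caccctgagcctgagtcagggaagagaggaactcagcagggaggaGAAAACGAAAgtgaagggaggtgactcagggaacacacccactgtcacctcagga
Ifit3b, chr19:34607724-34607857, plus strand: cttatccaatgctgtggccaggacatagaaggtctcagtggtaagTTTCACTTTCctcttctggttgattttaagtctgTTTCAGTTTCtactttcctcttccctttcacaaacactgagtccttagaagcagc
The first match begins 20 bases before the start of Oas1a, 75 before that of Oas3 and 188 before that of Ifit3b, where the capitals are the reverse complement of the motif. In Ifitm3 the matches lie just past the annotated start. In the table's windows of 250 bases before to 50 after a start, the motif was found in 3.44% of all 32851 promoters and in 17 of the 43 promoters matched to 33 of the 45 risen antiviral genes. The list was drawn up as interferon-induced genes, so its share of the motif reflects that choice and is no result of these counts. Among all tested members of the list, 17 of 47 promoters held the motif. A match is a sequence and not a measured site.

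Ifitm3, a membrane protein that blocks virus entry, measured 0.0778, 0, 0.107 and 0.230 CPM in culture and 31.6, 64.9, 19.1 and 81.0 in lymphatic 1 to 4, a change of 8.69 ± 0.74 (adjusted p = 1.64e-06). Mx1, a dynamin-like antiviral GTPase, had 2 counts in culture and 25.6, 75.7, 10.7 and 22.5 CPM in lymphatic 1 to 4, a ratio of counts of 732 (95% counting interval 202 to 6048). Oas2, an oligoadenylate synthase that arms RNase L, measured 0.156, 0.174, 0.215 and 0.346 CPM in culture and 68.9, 158, 33.2 and 43.3 in lymphatic libraries, a change of 8.37 ± 0.68 (adjusted p = 1.07e-06), and of 7.72 without lymphatic 2. These genes were close to silent in culture and on in each lymphatic library, and lymphatic 2 stood above lymphatic 1 and 3 in all of them. Rtp4, a chaperone-like interferon target, had 1 count in culture and 19.3, 41.4, 8.44 and 39.8 CPM, a ratio of 1113 (95% counting interval 199.5 to 43981). Oas1a had 1 count in culture and 8.79, 13.3, 7.89 and 18.0 CPM, Oas3 2 counts and 12.2, 19.3, 6.94 and 12.5 CPM, and Ifit3b 1 count and 1.49, 7.62, 1.10 and 5.17 CPM. Oas1a and Ifit3b have close copies that can share or lose reads in counting. Ifi27l2a, a short interferon-induced transcript, measured 7.93, 5.91, 6.13 and 5.76 CPM in culture and 65.5, 71.0, 65.9 and 255 in lymphatic libraries and changed by 4.14 ± 0.47 (adjusted p = 2.48e-05). Lymphatic 4 stood far above the other 3, and the change was 3.36 without it. The order of libraries differed from that of the T cell markers. Of the 45 risen antiviral genes, 34 were highest in lymphatic 2 and 36 were lowest in lymphatic 3. Of 19 T cell markers, 14 were highest in lymphatic 4 and 18 lowest in lymphatic 1. The summed myeloid markers, at 76.8, 141, 66.8 and 121 CPM in lymphatic 1 to 4, were also highest in lymphatic 2 and lowest in lymphatic 3. The part of myeloid cells in the antiviral values was not tested.

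**Figure D3:**
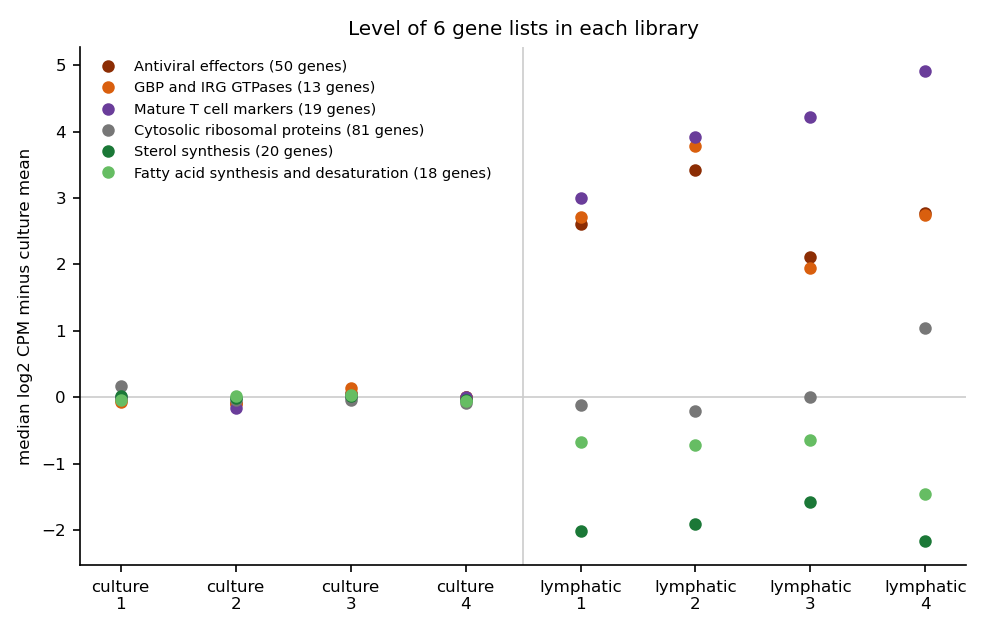
Median over the tested genes of 6 lists of log2 CPM minus the gene's culture mean, for each of the 8 libraries. Antiviral effectors and GBP and IRG GTPases peak in lymphatic 2, T cell markers and ribosomal proteins in lymphatic 4, and sterol synthesis lies below culture in each lymphatic library.

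The GTPases of the GBP and IRG families, which attack membranes of intracellular microbes, moved with the antiviral genes. Of 13 tested, 12 rose, each highest in lymphatic 2, with a list median of 2.90. Igtp, an IRG protein, measured 6.53, 8.16, 7.63 and 4.26 CPM in culture and 31.9, 56.6, 17.3 and 39.9 in lymphatic libraries and changed by 2.47 ± 0.31 (adjusted p = 6.14e-05). Irgm1, which regulates the family, measured 19.8, 18.8, 23.5 and 20.9 CPM in culture and 82.1, 154, 50.6 and 101 in lymphatic libraries and changed by 2.22 ± 0.26 (adjusted p = 3.42e-05). The groups did not overlap in either gene. Gbp7 rose from 0.206 ± 0.0864 to 12.2 ± 8.92 CPM, a change of 5.77 ± 0.59 that was 5.13 without lymphatic 2, and Tgtp2, which has a near-identical copy, had 3 counts in culture and 13.3, 35.6, 7.57 and 13.6 CPM. Gbp2, the tested member that was not called and is named for that, measured 10.4, 12.9, 10.5 and 11.3 CPM in culture and 8.59, 25.9, 10.6 and 14.7 in lymphatic libraries.

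Among sensors of foreign nucleic acid, 11 of 12 tested rose, and of their adaptors and relay proteins 2 of 8 rose and 1 fell. Ifi209, of the PYHIN family of DNA sensors, measured 70.9, 68.1, 68.7 and 65.9 CPM in culture and 325, 361, 221 and 206 in lymphatic libraries, a change of 2.02 ± 0.17 (adjusted p = 1.69e-06). Ifih1, which senses double-stranded RNA, rose from 1.81 ± 0.540 to 14.97 ± 8.02 CPM, Dhx58, its relative, from 2.79 ± 0.474 to 26.2 ± 7.44, and Eif2ak2, the RNA-activated kinase that stops translation, from 33.4 ± 2.31 to 94.8 ± 43.5. Ifi206 and Ifi208, other PYHIN genes among the 15 largest rises, changed by 7.30 ± 0.60 and 4.68 ± 0.49. Both were highest in lymphatic 2 and lowest in lymphatic 3. The adaptors that moved were Trim25 (0.80), Tmem173 (0.55) and Ticam1 (−0.78), which were named after their values were seen. The call of Ticam1 was lost without culture 1 (adjusted p = 0.0577) or culture 4 (0.0551), and the count of falls in the whole list was 0 without culture 1 or 4 and 2 without lymphatic 3 or 4.

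Of receptors, kinases, factors and inhibitors of interferon signalling 5 of 23 tested rose (21.7%) and 6 fell (26.1%). Irf7, a factor that amplifies interferon genes, averaged 0.755 ± 0.101 CPM over the culture libraries and measured 21.5, 23.1, 7.65 and 41.4 in the lymphatic ones and changed by 4.96 ± 0.56 (adjusted p = 2.26e-05). Irf9, the DNA-binding partner of the STAT proteins, rose from 8.93 ± 1.23 to 55.9 ± 14.7 CPM, and Usp18, which damps the receptor, from 0.769 ± 0.402 to 34.2 ± 21.4. No lymphatic library overlapped culture in Irf7, Irf9 or Usp18. Receptor subunits were named after their values were seen. Of 5 tested 1 fell, Il10rb, a subunit shared with other cytokine receptors, from 27.4 ± 1.11 to 19.1 ± 2.67 CPM, a change of −0.52 ± 0.12 (adjusted p = 0.00633). The others did not pass the test: Ifnar1 measured 34.4 ± 1.38 CPM in culture and 34.5 ± 4.61 in the lymphatic group, Ifnar2 15.7 ± 2.23 and 15.96 ± 2.31, Ifngr1 32.5 ± 3.42 and 34.7 ± 1.55, and Ifngr2 30.04 ± 2.99 and 26.6 ± 6.44. Without lymphatic 4, Ifngr2 passed as lower (−0.37, adjusted p = 0.0335). The kinase genes Jak1 and Jak2, named likewise, changed by −0.61 and −0.80. Irf8, a factor of B cell and myeloid identity, was the largest fall of the list, from 106 ± 3.66 to 58.1 ± 13.4 CPM.

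Ly6, Schlafen and GIMAP families were higher too. Of 10 tested Ly6 and Schlafen genes 9 rose, with a median of 6.00, or 5.29 with genes of 0 to 3 counts in culture at their bound. Slfn2, a Schlafen protein of quiescent and antiviral lymphocytes, measured 0.467, 0.695, 0 and 0.115 CPM in culture and 46.8, 69.0, 27.5 and 76.2 in lymphatic libraries, a change of 7.47 ± 0.57 (adjusted p = 5.87e-07). Ly6a, a surface protein of lymphocytes and progenitors, had 0 counts in culture and 6.63, 15.4, 6.39 and 28.6 CPM, at least 186-fold higher. Slfn8 rose from 10.1 ± 0.780 to 72.5 ± 37.0 CPM. Of 8 GIMAP GTPases, which support lymphocyte survival, 6 rose. Gimap4 had 2 counts in culture and 5.28, 11.9, 13.2 and 15.8 CPM and Gimap3 3 counts and 4.67, 8.45, 15.3 and 17.1 CPM. Gimap3 and Gimap4 had their lowest value in lymphatic 1 and their highest in lymphatic 4, as most T cell markers did, and the part of T cells in them was not tested. The number of falls among GIMAP genes was 0, and 1 without lymphatic 4. Galectins rose in 4 of 6 tested: Lgals9, a galectin that binds glycans of immune receptors, went from 146 ± 9.39 to 409 ± 73.7 CPM, and Lgals3bp, a secreted binding partner, from 0.196 ± 0.104 to 16.9 ± 3.86.

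Antigen presentation genes were higher. Of the class II chains and loading subunits 8 of 10 rose, and of all 21 class II genes tested 11 rose and 3 fell, or 5 without lymphatic 4. H2-Eb1, a class II beta chain, measured 8.95, 6.25, 8.28 and 7.37 CPM in culture and 91.2, 80.8, 154 and 217 in lymphatic libraries, a change of 4.12 ± 0.29 (adjusted p = 3.48e-07). H2-Aa, an alpha chain, measured 18.8, 13.7, 14.6 and 16.4 CPM in culture and 154, 144, 222 and 315 in lymphatic libraries, a change of 3.71 ± 0.23 (adjusted p = 1.26e-07). H2-Ab1 rose from 17.4 ± 4.07 to 141 ± 73.8 CPM and H2-DMa, which exchanges peptide on class II, from 1.56 ± 0.709 to 16.1 ± 9.52. Lymphatic libraries stood above culture in each of H2-Eb1, H2-Aa, H2-Ab1 and H2-DMa, with lymphatic 4 highest and lymphatic 2 lowest. In that order class II differed from the antiviral genes, which peaked in lymphatic 2. Dendritic cell markers, of other cells rich in class II, summed to 98.2, 109, 109 and 242 CPM in lymphatic 1 to 4. In culture they summed to 159 to 187. Most of the lymphatic sum was Bst2, at 41.4, 57.4, 34.3 and 154 CPM, and Ccr7, at 50.1, 40.5, 66.5 and 73.8. Culture held Bst2 at 23.8 ± 1.77 CPM and Ccr7 at 131 ± 10.3, so the sum does not measure dendritic cells alone. Most T cell markers too were highest in lymphatic 4. The part of other cells in the class II values was not tested. Of 24 class I genes 15 rose, 13 of them highest in lymphatic 4. Short transcripts as a group were also high in lymphatic 4. The part of transcript length in the lymphatic 4 peaks of class I, class II and T cell genes was not tested. H2-K1 measured 74.2, 69.3, 61.7 and 72.0 CPM in culture and 136, 162, 222 and 425 in lymphatic libraries, a change of 1.77 ± 0.28 (adjusted p = 0.000395), and 1.32 without lymphatic 4. Tap1, the peptide transporter, measured 24.9, 22.8, 23.002 and 21.9 CPM in culture and 53.03, 56.2, 48.9 and 66.6 in lymphatic libraries, a change of 1.28 ± 0.12 (adjusted p = 5.27e-06). H2-K1 and H2-D1 are close copies whose reads can be shared or lost.

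**Figure D4:**
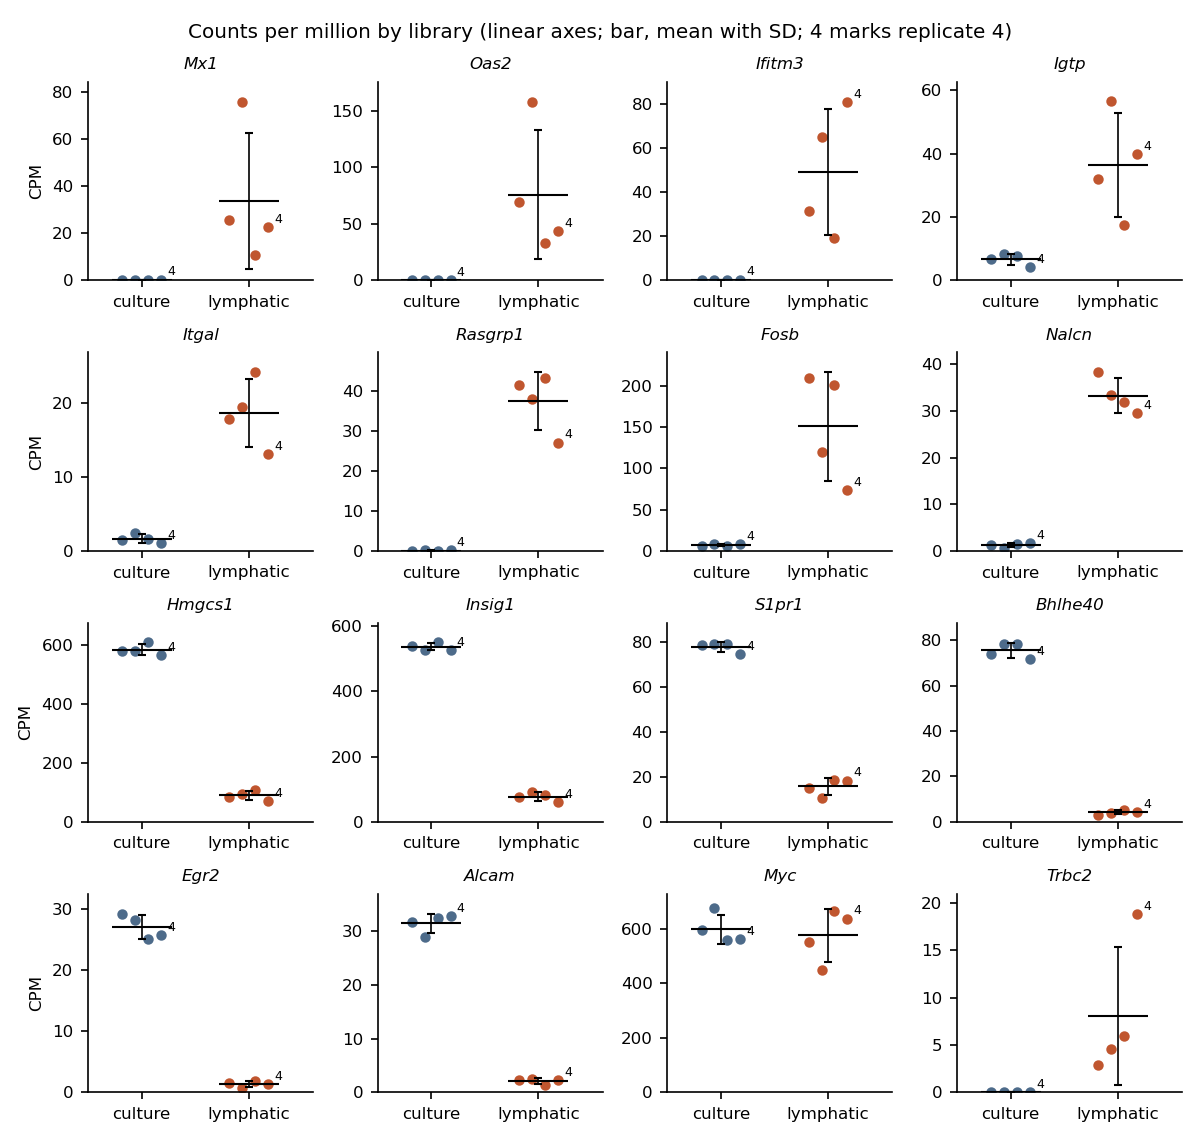
CPM of 16 genes in the 4 culture (blue) and 4 lymphatic (orange) libraries on linear axes that start at 0; points are libraries, the horizontal bar is the mean, the whisker its SD, and 4 marks replicate 4. Groups do not overlap in any panel but that of Myc, which spans 595, 676, 560.4 and 563 CPM in culture and 553, 449, 666 and 638 in the lymphatic group.

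Genes of cholesterol synthesis fell. Of 20 genes tested 19 fell, against 13.0% of all tested genes, and in all 19 the lymphatic libraries lay below all culture libraries. The median was −1.89, and −1.84 without lymphatic 4. The gene that did not pass, Ebp, an isomerase late in the path and named for that, changed by 0.07 ± 0.18. The promoter stretch of Hmgcs1, which makes the precursor of mevalonate, is shown since it was the single promoter among 17 matched to 14 of the fallen genes that holds the letters of the sterol regulatory element, TCACNCCAC on either strand, found in 1.24% of all promoters (RefSeq, GRCm38.p6, capitals mark the match, which begins 137 bases before the start).
Hmgcs1, chr13:119690169-119690267, plus strand: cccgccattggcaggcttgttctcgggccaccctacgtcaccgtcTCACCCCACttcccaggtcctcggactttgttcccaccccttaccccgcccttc
Hmgcs1 measured 579, 578, 608 and 564 CPM in culture and 84.3, 93.1, 109 and 69.9 in lymphatic 1 to 4, a change of −2.71 ± 0.13 (adjusted p = 1.05e-08). Msmo1, a sterol demethylation enzyme, measured 326, 310.1, 351 and 322 CPM in culture and 46.8, 64.4, 61.5 and 65.5 in lymphatic libraries, a change of −2.46 ± 0.12 (adjusted p = 1.27e-08). Lss, which closes the sterol ring, measured 265, 301, 280.0 and 274 CPM in culture and 51.4, 54.9, 67.3 and 30.9 in lymphatic libraries, a change of −2.45 ± 0.18 (adjusted p = 5.15e-07). Within each group these enzymes varied little beside the gap between groups, lymphatic 4 included. Pmvk, a mevalonate kinase step, fell from 149 ± 14.8 to 23.7 ± 9.13 CPM and Sc5d, a desaturase, from 198 ± 6.34 to 42.4 ± 3.83.

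Regulators and carriers of sterol moved in both directions. Insig1, which retains SREBP in the endoplasmic reticulum and is itself its target, measured 539.7, 528, 551 and 527 CPM in culture and 76.4, 90.4, 82.9 and 58.9 in lymphatic libraries, a change of −2.80 ± 0.15 (adjusted p = 2.69e-08). The groups lay far apart, and lymphatic libraries differed from each other by less than 2-fold. The SREBP genes fell as well, Srebf2 from 357 ± 38.9 to 114 ± 42.8 CPM and Srebf1 from 81.4 ± 16.8 to 32.4 ± 13.1. Of 20 genes of sterol sensing, uptake and efflux 7 fell and 4 rose. The 4 that rose, named after their values were seen, were Nr1h3, a sterol-activated nuclear receptor (1.86), the exporters Abca1 (1.73) and Abcg1 (0.95), and Soat1, which stores cholesterol as ester (0.43). Soat1 lost its call in 6 of 8 fits that left out 1 library (adjusted p up to 0.144, without culture 1) and kept it without culture 2 or lymphatic 4.

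Fatty acid synthesis and desaturation fell in 12 of 18 tested genes and rose in 0, or 1 without lymphatic 2, with a median of −0.82. Fads2, a desaturase of polyunsaturated fatty acids, measured 173, 180.0, 176 and 165 CPM in culture and 11.8, 11.6, 23.6 and 7.53 in lymphatic libraries, a change of −3.68 ± 0.28 (adjusted p = 5.87e-07). Scd2, a desaturase that makes oleate, measured 2195, 2400.2, 2326 and 2280.2 CPM in culture and 487, 459, 747 and 369 in lymphatic libraries, a change of −2.16 ± 0.18 (adjusted p = 1.64e-06). Lymphatic 3 was the highest lymphatic library in both, and still far below culture. Scd1 fell from 717 ± 21.7 to 209 ± 52.7 CPM, Elovl6, an elongase, from 417 ± 30.6 to 154 ± 38.3 and Fads1 from 77.0 ± 5.21 to 27.6 ± 9.13. In fatty acid oxidation 6 of 20 genes rose, and 3 without culture 1, 2 or 4. Hadhb, a subunit of the trifunctional enzyme, rose from 67.7 ± 2.20 to 117 ± 15.9 CPM, while Ppard, a fatty acid receptor, fell from 18.7 ± 3.20 to 8.58 ± 2.37. That single fall became 2 without lymphatic 3. Pcyt2, which makes phosphatidylethanolamine, fell from 211 ± 24.8 to 71.9 ± 22.7 CPM and Asah1, a lysosomal ceramidase, from 74.6 ± 2.90 to 37.7 ± 3.07.

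Genes induced by low oxygen were lower. Of 21 tested 15 fell, and 0 rose, or 1 without lymphatic 4. Of the falls 14 were without overlap of the groups, and the list had a median of −0.56. Bhlhe40, a repressor induced by hypoxia and by activation, measured 74.0, 78.2, 78.4 and 71.6 CPM in culture and 3.11, 3.83, 5.36 and 4.33 in lymphatic libraries, a change of −4.19 ± 0.20 (adjusted p = 1.05e-08). Ddit4, an inhibitor of mTORC signalling, measured 104, 86.3, 90.1 and 99.7 CPM in culture and 22.6, 21.6, 27.8 and 42.7 in lymphatic libraries, a change of −1.73 ± 0.28 (adjusted p = 0.0004). Bnip3, a mitophagy receptor, measured 93.1, 87.6, 104 and 88.8 CPM in culture and 35.4, 41.7, 46.9 and 62.8 in lymphatic libraries, a change of −0.999 ± 0.19 (adjusted p = 0.00156). In Ddit4 and Bnip3 lymphatic 4 was the lymphatic library nearest to culture. Kdm3a, an oxygen-dependent histone demethylase, fell from 224 ± 12.3 to 112 ± 25.9 CPM and Egln1, the oxygen sensor that marks HIF for decay, from 89.0 ± 7.63 to 46.4 ± 11.7. In glycolysis 10 of 19 tested genes fell and 1 rose, the lactate carrier Slc16a1 (0.32), named after its value was seen. The number of rises was 0 without culture 1, 2, 3 or 4 or lymphatic 1 and 2 without lymphatic 4, and the adjusted p of Slc16a1 reached 0.0695. Slc16a3, another lactate exporter, measured 104, 107, 76.5 and 87.9 CPM in culture and 17.4, 18.3, 34.0 and 63.6 in lymphatic libraries, a change of −1.49 ± 0.34 (adjusted p = 0.00525), and Slc2a1, a glucose transporter, 62.1, 58.5, 50.1 and 48.7 in culture and 18.7, 11.6, 23.7 and 35.1 in lymphatic libraries, a change of −1.30 ± 0.26 (adjusted p = 0.00219). Gpi1, the isomerase that follows hexokinase, fell from 809 ± 51.1 to 490.2 ± 90.2 CPM.

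Of 25 lysosome and autophagy genes 11 fell and 2 rose. Tpp1, a lysosomal peptidase, fell from 113 ± 4.91 to 59.6 ± 7.73 CPM and Lamp1, of the lysosome membrane, from 313 ± 15.5 to 186 ± 14.4, while Ctsc, a cathepsin, rose from 80.4 ± 3.52 to 123 ± 15.8. The number of rises was 1 without culture 1 or 4 and 4 without lymphatic 2. Gsr, which regenerates glutathione, measured 18.0, 15.98, 20.1 and 18.8 CPM in culture and 2.03, 2.43, 2.13 and 3.49 in lymphatic libraries, a change of −2.84 ± 0.21 (adjusted p = 5.33e-07). Gstm1, a glutathione transferase, measured 43.6, 37.0, 41.1 and 36.6 CPM in culture and 10.5, 9.53, 6.78 and 9.22 in lymphatic libraries, a change of −2.13 ± 0.18 (adjusted p = 1.9e-06). The groups were apart in Gsr and Gstm1 by far more than their spread, while of 22 redox genes 4 fell and 4 rose, with a median of 0.30, and of 9 iron genes 4 fell and 2 rose. Fth1, the ferritin heavy chain, fell from 1507 ± 82.7 to 785 ± 218 CPM and Gss, glutathione synthetase, rose from 9.05 ± 1.36 to 17.8 ± 4.65.

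Of 28 tested activation genes 14 fell and 2 rose, or 1 without culture 2, 3 or 4 or lymphatic 1. Fosb, an AP-1 subunit of the immediate early response, measured 5.83, 8.51, 6.34 and 7.95 CPM in culture and 209.8, 119, 200.5 and 73.4 in lymphatic libraries, a change of 4.41 ± 0.37 (adjusted p = 1.39e-06). Egr2, a zinc finger factor induced by antigen receptor signals, measured 29.2, 28.1, 25.2 and 25.7 CPM in culture and 1.56, 0.798, 1.89 and 1.41 in lymphatic libraries, a change of −4.29 ± 0.28 (adjusted p = 1.75e-07). Nab2, its corepressor, measured 29.3, 24.8, 19.8 and 23.97 CPM in culture and 0.812, 1.16, 2.37 and 3.04 in lymphatic libraries, a change of −3.74 ± 0.37 (adjusted p = 7.68e-06). Fosb was higher in each lymphatic library and Egr2 and Nab2 lower in each. The phosphatases Dusp4 and Dusp10, which switch off MAP kinases, fell from 15.7 ± 1.77 to 2.41 ± 1.03 and from 15.8 ± 1.37 to 3.38 ± 0.996 CPM. Fos and Egr1, named after their values were seen, did not pass the test, at 22.6 ± 2.28 and 23.7 ± 5.47 CPM for Fos and 4.10 ± 0.605 and 5.52 ± 0.976 for Egr1. The other gene that rose, Jund, changed by 0.70 ± 0.22, was named likewise and lost its call without culture 2, 3 or 4 or lymphatic 1 or 4 (adjusted p up to 0.101). Of 19 NF-kB genes 4 fell (21.1%) and 3 rose (15.8%), or 6 without lymphatic 4. The subunit Rel fell from 69.1 ± 4.05 to 36.8 ± 9.14 CPM and Nfkb2 from 19.1 ± 2.15 to 10.1 ± 2.38, while the inhibitor Nfkbia rose from 20.5 ± 0.921 to 40.1 ± 14.996. Tlr1, a receptor for bacterial lipopeptides, rose from 10.9 ± 2.07 to 33.5 ± 6.93 CPM and Cd180, a receptor of the same family on B cells, fell from 79.8 ± 5.31 to 30.2 ± 5.71, out of 7 such genes tested. A further gene of that list rose without lymphatic 3, making 2, and a further gene fell without lymphatic 4, also making 2.

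In the B cell receptor complex and its coreceptors 14 of 27 tested genes rose and 6 fell. Ms4a1, the CD20 antigen of mature B cells, measured 0.856, 0.521, 0.967 and 0.807 CPM in culture and 10.2, 18.7, 16.9 and 22.9 in lymphatic libraries, a change of 4.39 ± 0.29 (adjusted p = 1.9e-07). Igkc, the kappa constant gene, measured 709.5, 574, 672 and 638 CPM in culture and 1679.9, 1957, 1497 and 3140.2 in lymphatic libraries, a change of 1.67 ± 0.19 (adjusted p = 2.5e-05). Cd93, a receptor of early B cells, measured 531, 582, 591 and 575 CPM in culture and 246, 232, 248 and 95.2 in lymphatic libraries, a change of −1.47 ± 0.23 (adjusted p = 0.00029). Lymphatic 4 was the extreme library in Ms4a1, Igkc and Cd93, and the groups were apart without it. The lambda genes Iglc1 and Iglc3 are close copies whose reads can be shared. Iglc1 rose from 4.74 ± 0.450 to 43.8 ± 8.78 CPM and Iglc3 from 3.73 ± 0.788 to 55.1 ± 23.3. The part of B cells other than the lymphoma was not tested in the rises of Ms4a1, Igkc, Iglc1 and Iglc3. It was not tested in the shares of V genes either. Igkv3-7 held 98.6% to 98.9% of kappa V counts in culture and 95.7% to 98.5% in the lymphatic libraries. Ighv3-6 held 99.96% of heavy chain V counts in culture and 96.99% in the lymphatic libraries on average (94.8% to 98.8%), and the rest came from other V genes (two-sided exact permutation p = 0.0286, 0.0857 adjusted over 18 library measures). Of the signalling subunits Cd79b rose from 269 ± 18.6 to 482 ± 159 CPM, and Cd79a, at 446 ± 39.9 and 399 ± 105, did not pass with all libraries but did as lower without lymphatic 4 (−0.34, adjusted p = 0.0248). Ptprc, the CD45 phosphatase, measured 392 ± 14.5 and 305 ± 85.8 CPM and did not pass, except as lower without lymphatic 2 (adjusted p = 0.0465).

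In the cascade behind the receptor 11 of 32 genes rose and 9 fell. Rasgrp1, an exchange factor that loads Ras in lymphocytes, had 2 counts in culture and 41.5, 37.9, 43.1 and 27.1 CPM in lymphatic 1 to 4, a ratio of 675 (95% counting interval 187 to 5576). T cells are also known to express Rasgrp1, and their part in its level was not tested. Bank1, a B cell scaffold, rose from 70.9 ± 4.29 to 162 ± 26.0 CPM and Rasgrp2, a related exchange factor for Rap, from 31.6 ± 3.54 to 74.6 ± 17.8. The adaptor Sh3bp2 measured 72.7, 62.2, 59.5 and 60.04 CPM in culture and 14.2, 13.3, 15.6 and 13.6 in lymphatic libraries, a change of −2.17 ± 0.14 (adjusted p = 1.26e-07), and the kinase Fyn 127, 132, 126 and 119 in culture and 43.8, 38.9, 44.9 and 39.7 in lymphatic libraries, a change of −1.59 ± 0.10 (adjusted p = 8.39e-08). Among B cell identity factors 11 of 33 fell and 3 rose, or 6 without lymphatic 4. Bcl6, the repressor of germinal centre cells, fell from 22.3 ± 2.61 to 6.11 ± 1.05 CPM, Lmo2, a germinal centre and progenitor adaptor, from 130.4 ± 8.17 to 38.8 ± 8.29, and Bach2, a repressor of plasma cell fate, from 319.7 ± 25.1 to 141 ± 46.9. Ebf1, an early B cell factor, measured 94.0 ± 7.66 and 75.3 ± 4.82 CPM and did not pass (adjusted p = 0.058), but did as lower without lymphatic 4 (0.0443). Recombination and precursor B genes rose in 5 and fell in 2 of 13, with rises in 3 without culture 1. Rag2 measured 5.13, 4.52, 6.45 and 4.49 CPM in culture and 15.1, 17.8, 20.8 and 9.95 in lymphatic libraries, a change of 1.62 ± 0.25 (adjusted p = 0.000286). Rag1 measured 10.5, 9.38, 10.4 and 11.2 CPM in culture and 41.5, 50.6, 51.3 and 10.8 in lymphatic libraries, a change of 1.89 ± 0.38 (adjusted p = 0.00233), with lymphatic 4 inside the range of culture.

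Homing and exit receptors moved in both directions. Of 12 chemokine and lipid receptors of homing 5 rose, or 3 without culture 3, and 2 fell. S1pr1, the receptor for sphingosine phosphate that guides exit, measured 78.6, 79.2, 79.1 and 74.6 CPM in culture and 15.2, 10.5, 18.8 and 18.3 in lymphatic libraries, a change of −2.31 ± 0.21 (adjusted p = 2.65e-06). Ccr7, the chemokine receptor of the T cell zone, measured 145, 133, 125 and 122 CPM in culture and 50.1, 40.5, 66.5 and 73.8 in lymphatic libraries, a change of −1.19 ± 0.16 (adjusted p = 9.81e-05). S1pr1 and Ccr7 were lower in every lymphatic library than in culture. Klf2, a transcription factor whose known targets include S1pr1, measured 3.97, 2.61, 2.26 and 3.23 CPM in culture and 18.3, 10.9, 22.9 and 44.6 in lymphatic libraries, a change of 2.97 ± 0.37 (adjusted p = 5.51e-05), highest in lymphatic 4. Of 32 integrin and adhesion genes 11 rose and 13 fell. Itgal, the alpha chain of the lymphocyte integrin LFA, measured 1.48, 2.43, 1.61 and 1.04 CPM in culture and 17.9, 19.5, 24.2 and 13.1 in lymphatic libraries, a change of 3.55 ± 0.24 (adjusted p = 3.09e-07). Alcam, an adhesion molecule of the immunoglobulin family, measured 31.7, 28.8, 32.5 and 32.8 CPM in culture and 2.30, 2.43, 1.34 and 2.30 in lymphatic libraries, a change of −3.88 ± 0.20 (adjusted p = 1.94e-08). Lama5, a laminin chain, measured 17.1, 14.8, 16.02 and 12.3 CPM in culture and 0.135, 0.160, 0.0789 and 0.0562 in lymphatic libraries, a change of −6.94 ± 0.33 (adjusted p = 1.05e-08). Itgal was low in culture and higher in each lymphatic library, and Alcam and Lama5 were low in each lymphatic library. The laminin-binding integrin gene Itga6 fell from 163 ± 8.97 to 57.5 ± 18.0 CPM and the collagen-binding Itga1 from 29.9 ± 3.16 to 5.15 ± 1.76.

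In the TGF-beta family 9 of 25 genes fell and 0 rose, or 1 without lymphatic 4. Tgfb3, a ligand, measured 19.5, 18.2, 18.7 and 19.9 CPM in culture and 0.203, 0.0798, 0.0789 and 0.0562 in lymphatic libraries, a change of −7.44 ± 0.33 (adjusted p = 9.08e-09). Gdf11, another ligand, measured 33.1, 28.1, 31.8 and 38.9 CPM in culture and 3.45, 4.31, 4.81 and 3.20 in lymphatic libraries, a change of −3.07 ± 0.22 (adjusted p = 3.45e-07). Tgfbr2, the receptor that binds TGF-beta, measured 106, 117, 106 and 102 CPM in culture and 33.9, 29.9, 38.0 and 24.01 in lymphatic libraries, a change of −1.78 ± 0.14 (adjusted p = 6.22e-07). Ligands and receptor were lower in each lymphatic library, and Tgfb3 was close to 0 there. In the Notch pathway 4 of 13 fell: Jag2, a ligand, from 23.5 ± 4.55 to 2.12 ± 1.18 CPM, Jag1 from 11.8 ± 0.843 to 6.24 ± 1.59, Numb, an inhibitor, from 41.1 ± 3.53 to 18.0 ± 3.57, and the target Hey1, named after its value was seen, from 6.89 ± 0.685 to 1.38 ± 0.249. Cytokine receptor genes rose in 7 (30.4%) and fell in 3 of 23 (against 13.0% of all tested genes), with falls in 7 without lymphatic 4, where 17.9% of all tested genes fell. Il10ra rose from 9.72 ± 1.62 to 31.0 ± 6.48 CPM, while Il21r fell from 23.003 ± 1.85 to 8.06 ± 2.64 and Il4ra from 42.6 ± 2.50 to 21.2 ± 3.61. Of 16 checkpoint and costimulatory genes 7 rose and 5 fell. Cd47, the signal that restrains phagocytes, measured 70.6, 77.8, 82.2 and 74.3 CPM in culture and 194, 192, 158 and 243 in lymphatic libraries, a change of 1.37 ± 0.13 (adjusted p = 5.54e-06). Btla, an inhibitory receptor, measured 202, 204, 212 and 227 CPM in culture and 105, 123, 89.2 and 75.3 in lymphatic libraries, a change of −1.10 ± 0.15 (adjusted p = 0.000146). Cd72, an inhibitory coreceptor, fell from 425 ± 11.1 to 250.3 ± 26.3 CPM.

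The driver Myc did not pass the test. It measured 595, 676, 560.4 and 563 CPM in culture and 553, 449, 666 and 638 in the lymphatic libraries, a difference of −0.05 ± 0.13 (adjusted p = 0.798) with overlapping groups. Of 11 genes of its network 2 fell, 18.2% against 13.0% of all tested genes: the antagonists Mxd4, from 69.9 ± 4.84 to 44.0 ± 8.73 CPM, and Mnt, from 41.5 ± 2.32 to 27.1 ± 7.31. Ribosome biogenesis and growth targets rose in 18 of 34 (12 without culture 2 to 19 without lymphatic 4), with a median of 0.38. Ncl, nucleolin, measured 2843, 2772, 2946 and 2734 CPM in culture and 4372, 4762, 3673 and 4539 in lymphatic libraries, a change of 0.62 ± 0.11 (adjusted p = 0.000668). Odc1, the first enzyme of polyamine synthesis, measured 476, 450.4, 468 and 413 CPM in culture and 676, 743, 632 and 719.5 in lymphatic libraries, a change of 0.62 ± 0.10 (adjusted p = 0.000324). These changes were small and the groups did not overlap in either gene. Ribosomal protein genes were called in 0 of 81 by edgeR, with 9 higher and 0 lower at an unadjusted p under 0.05 and 4 higher in DESeq2. Calls of higher ribosomal protein genes numbered 1 without lymphatic 4, 3 without lymphatic 1, 4 without lymphatic 2 and 6 without lymphatic 3. Without lymphatic 4, 8 fell and 1 rose, and the median went from 0.30 to −0.14, so no direction is given. Of 45 replication and mitosis genes 5 were called higher, 11.1% against 13.4% of all tested genes, and 1 without culture 2, 3 or 4, 2 without culture 1 and 10 without lymphatic 4. Falls numbered 0, and 2 without lymphatic 3 and 5 without lymphatic 4.

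Genes of the amino acid and unfolded protein responses rose in 16 and fell in 2 of 38 tested. Mthfd2, a mitochondrial folate enzyme, measured 107, 105, 123 and 100.0 CPM in culture and 216, 209, 196 and 220.4 in lymphatic libraries, a change of 0.95 ± 0.12 (adjusted p = 4.16e-05). Cth, which makes cysteine, rose from 22.4 ± 1.61 to 44.3 ± 4.92 CPM, and the glutamine carrier Slc1a5 fell from 1355 ± 14.2 to 719 ± 112. Heat shock chaperones rose in 9 and fell in 2 of 20. Hsp90aa1, the inducible form of the chaperone, measured 909.9, 864, 907 and 844 CPM in culture and 1534, 2037, 1415 and 1941 in lymphatic libraries, a change of 0.97 ± 0.12 (adjusted p = 6.08e-05). In the BCL2 family 3 of 12 fell (25%) and 2 rose (16.7%). Bmf, a death activator of the BH3-only kind, measured 25.9, 26.9, 29.5 and 23.97 CPM in culture and 6.02, 5.14, 8.83 and 4.67 in lymphatic libraries, a change of −2.12 ± 0.31 (adjusted p = 0.000179). Bcl2, its survival counterpart, fell from 45.4 ± 2.54 to 31.6 ± 1.63 CPM and Bid rose from 55.0 ± 5.06 to 77.6 ± 10.1. Of 22 p53 and ARF genes 7 fell, or 4 without culture 1 or 3, and 1 rose, or 2 without lymphatic 2 or 4. Trp53inp1, a p53 target, fell from 197 ± 12.9 to 57.6 ± 18.0 CPM and Rrm2b, a p53-induced ribonucleotide reductase subunit, rose from 23.9 ± 2.02 to 44.997 ± 9.83. Among modifiers of histones, DNA methylation and chromatin 7 of 27 fell (25.9%), or 4 without culture 2 or 4, and 2 rose, or 0 without culture 1, 2 or 4, 1 without culture 3 or lymphatic 1 or 2 and 4 without lymphatic 4. Hdac9, a class II deacetylase, measured 181, 198, 200.03 and 202 CPM in culture and 37.3, 35.7, 29.97 and 17.6 in lymphatic libraries, a change of −2.69 ± 0.19 (adjusted p = 3.75e-07). Kdm5b, a histone demethylase, fell from 38.9 ± 2.22 to 11.7 ± 4.23 CPM.

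Among clock, glucocorticoid and FOXO genes falls outnumbered rises. These lists share genes, so their counts are not independent. Pik3ip1 is in the glucocorticoid and FOXO lists. Bhlhe40 of the clock list and Ddit4 of the glucocorticoid list are also among the genes induced by low oxygen. Of 15 clock genes 7 fell and 1 rose: Per1, a clock repressor, went from 52.3 ± 5.87 to 22.2 ± 5.51 CPM and Cry2, another, from 10.9 ± 1.35 to 18.7 ± 3.01. Rises numbered 2 without lymphatic 4. The time of day of collection is not given in the labels. Of 13 glucocorticoid-responsive genes 7 fell and 3 rose. Tsc22d3, the glucocorticoid-induced leucine zipper, measured 18.0, 16.2, 18.2 and 14.3 CPM in culture and 29.8, 25.6, 50.2 and 59.2 in lymphatic libraries, a change of 1.30 ± 0.34 (adjusted p = 0.0116). Irs2, an insulin receptor substrate, fell from 62.9 ± 6.22 to 15.4 ± 4.06 CPM. Of 19 FOXO and KLF2 genes 10 fell and 6 rose, and Pik3ip1, an inhibitor of PI3 kinase, measured 44.4, 38.2, 40.0 and 45.5 CPM in culture and 4.46, 5.26, 8.28 and 8.77 in lymphatic libraries, a change of −2.66 ± 0.34 (adjusted p = 6.55e-05).

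**Figure D5:**
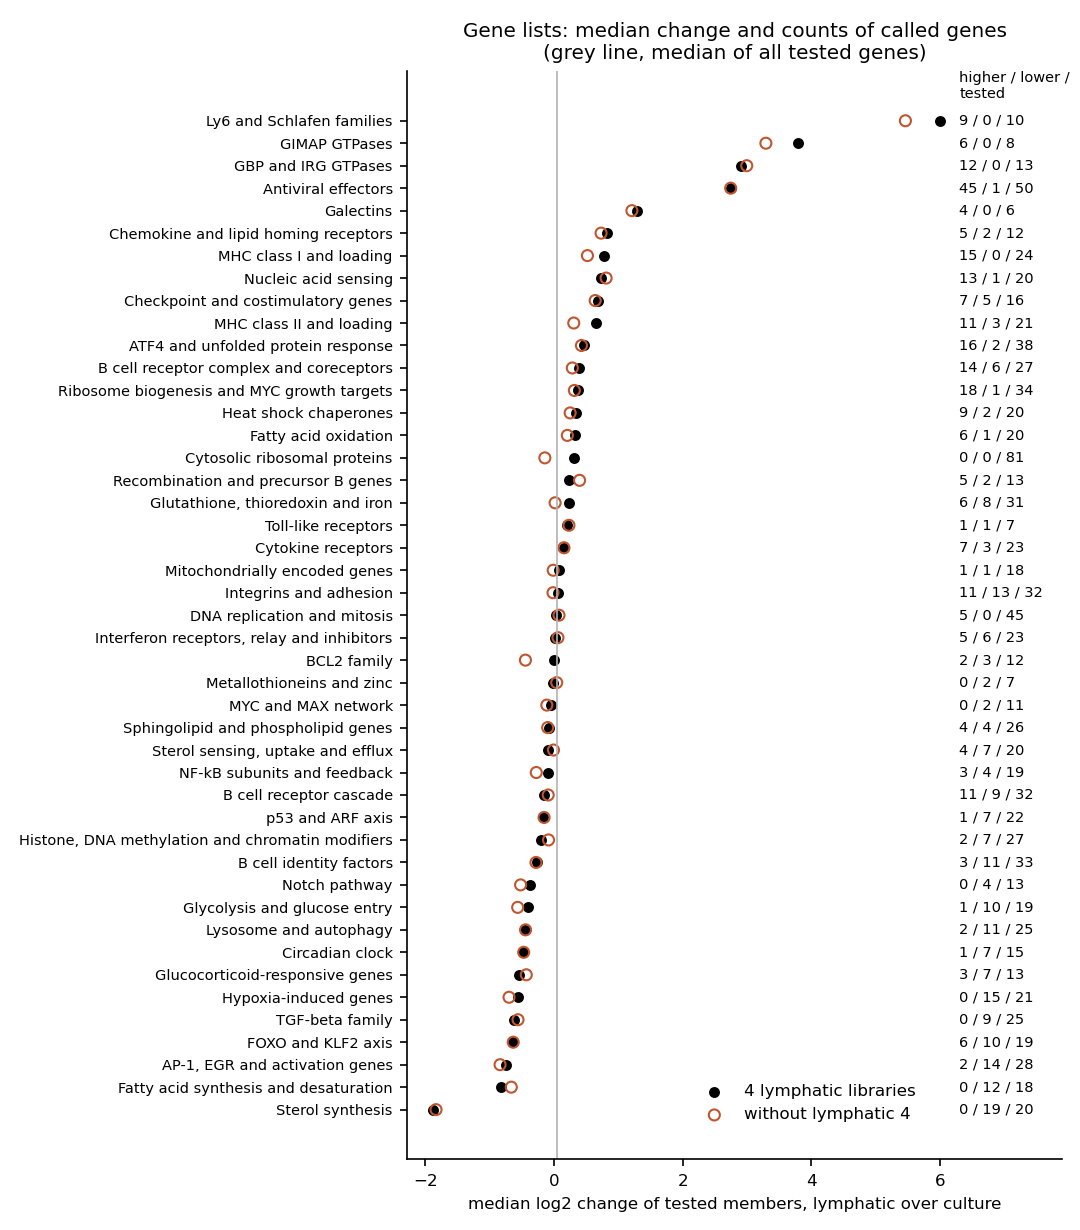
Median log2 change of the tested members of 45 gene lists with 4 lymphatic libraries (filled) and without lymphatic 4 (open), and the numbers of genes called higher, called lower and tested. Ly6 and Schlafen, GIMAP, GBP and IRG and antiviral lists lie at the top, sterol and fatty acid synthesis at the bottom, and the ribosomal protein median changes sign without lymphatic 4.

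Several of the largest single changes fell outside these lists. Nalcn, a sodium leak channel, measured 1.32, 0.695, 1.40 and 1.73 CPM in culture and 38.3, 33.4, 31.9 and 29.5 in lymphatic libraries, a change of 4.63 ± 0.18 (adjusted p = 3.86e-09). Hsd17b13, a lipid droplet dehydrogenase, measured 2.72, 2.26, 2.69 and 1.96 CPM in culture and 46.5, 46.7, 39.4 and 56.6 in lymphatic libraries, a change of 4.28 ± 0.17 (adjusted p = 3.86e-09). The groups were far apart in both, with little spread among lymphatic libraries. Epsti1, an interferon-induced gene, rose from 1.07 ± 0.449 to 31.4 ± 14.4 CPM and C78197 from 0.426 ± 0.181 to 31.9 ± 9.78. Mpeg1, a pore-forming protein of phagocytes and B cells, rose from 0.825 ± 0.331 to 36.7 ± 20.6 CPM. Unlike the others here, Mpeg1 is on a list, as one of the risen myeloid markers. Mpeg1 was highest in lymphatic 2, at 38.2, 65.1, 19.1 and 24.3 CPM in lymphatic 1 to 4, while Lyz2 was highest in lymphatic 4. Among falls, Nyx, a leucine-rich repeat protein, measured 148, 165, 180.4 and 189.8 CPM in culture and 9.06, 6.10, 9.46 and 1.07 in lymphatic libraries, a change of −4.75 ± 0.49 (adjusted p = 9.26e-06). Rasgef1a, an exchange factor for Ras-like proteins, measured 61.8, 60.8, 63.1 and 66.1 CPM in culture and 2.98, 3.75, 5.91 and 3.54 in lymphatic libraries, a change of −3.97 ± 0.23 (adjusted p = 5.52e-08). Both falls showed in all 4 lymphatic libraries. Bcar3, an adaptor of integrin signalling, fell from 94.9 ± 9.29 to 10.5 ± 3.53 CPM, Zc3h12d, an RNase of lymphocytes, from 68.9 ± 2.30 to 7.18 ± 1.09, and Fam221a from 67.3 ± 2.42 to 6.01 ± 1.80. Papss2, which supplies sulfate donors, fell from 38.4 ± 4.65 to 3.41 ± 0.834 CPM, Cacna1d, a calcium channel, from 38.4 ± 4.05 to 3.71 ± 1.79, and Slco5a1, an orphan transporter, from 36.8 ± 5.15 to 2.74 ± 0.942. Lhx2, a homeobox factor, fell from 34.3 ± 4.11 to 3.96 ± 1.28 CPM. At the extreme, 30 genes had at least 1 CPM in all 4 lymphatic libraries and under 0.1 in all of culture, and 4 genes showed the reverse. The 30 held the T cell and myeloid markers Trbc2, Cd4, Cd8a and Lyz2 and also Blk, a kinase of B cells, at 1.96, 3.71, 3.63 and 3.82 CPM, named after its value was seen. The 4 reverse genes, also named after their values were seen, were Ankrd63, Npr2, Rcan2 and Csmd1.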

How the data were processed

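Poly(A) RNA of 8 libraries was sequenced as stranded single reads, per the labels' protocols. The authors deposited raw counts of reads per gene, made with FastQC 0.11.9, Trimmomatic 0.39, HISAT2 2.1.0 and HTSeq 2.0.2 on GRCm39, per the submitters' processing notes, which do not give their order or settings. Lines that name no gene (no feature, ambiguous, not aligned, not unique, low quality) held 30.3% to 36.5% of each file's total and were left out. The annotation release behind the counts is not given in the sources used here. Symbols from a reference table matched 91.8% of 56748 Ensembl identifiers, and transcript lengths from GENCODE vM21 matched 98.4% of tested genes.

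Counts were scaled by TMM and tested in edgeR 4.0.16 (R 4.3.3) by the quasi-likelihood test on all 12 libraries by group, after its expression filter left 13535 genes, with Benjamini-Hochberg adjustment over all of them. CPM used the TMM library sizes. Library measures were compared by an exact permutation test. Alternatives used DESeq2 1.42.0 and limma 3.58.1, other scalings and filters, the 8 libraries alone, each library left out, and a replicate block. The code was tested on simulated counts. Genes were named by a rule: the 15 largest called changes in each direction at a mean of at least 30 CPM in either group, up to 5 called genes a list at 10 CPM, Myc, Ptprc and B cell genes, the antiviral and sterol genes whose promoter holds the motif, and genes that set lymphatic 4 apart. Some genes that the rule names are not reported here. The members and gene lists were chosen with earlier results of these data known. Reads of near-identical genes may be split or lost, and total assigned counts of 5655422 to 25302016 limit the precision of low genes. Promoters came from RefSeq on GRCm38.p6, and none of its coordinates were joined to the counts.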

Additional observations from a re-analysis of the deposited data

Results flagged for a closer look

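In groups of 4 libraries, 34 of 388 sets of values over the genes named in the report and the library measures had a highest or lowest library set off from the other 3 beyond Dixon's 95% critical value for 4 samples. Chance alone gives such a gap in about 1 of 20 groups, and genes of 1 library are not independent. Lymphatic 4 was the library set off in 20 of them, 9 times as the highest and 11 as the lowest. Among these, Rps27rt, Ifi27l2a, Med12, Usp9x and Atm met the naming rule for genes that set lymphatic 4 apart. Their flags follow from that choice, and the rate of 1 of 20 does not apply to them.

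In CPM, lymphatic 4 was set off as the highest lymphatic library for Fth1 at 1112, Ifi27l2a at 255, Ifngr2 at 36.3, Iglc1 at 56.9, Iglc3 at 89.9 and Rps27rt at 206. It was set off as the lowest for Atm at 20.6, Cd180 at 21.8, Cd93 at 95.2, Ifnar1 at 27.7, Ighv3-6 at 122, Jak1 at 98.4, Med12 at 4.83, Rag1 at 10.8, Rel at 23.2, Tpp1 at 48.1 and Usp9x at 24.1. Among library measures it had 15.9% of counts in ribosomal protein genes, 13.2% of reads aligned to more than 1 place and a summed dendritic cell marker level of 242 CPM, each the highest of the lymphatic group. Most of the dendritic sum was Bst2 and Ccr7. Rag1, Cd93, Cd180, Tpp1, Rel and Jak1 are genes of the comparison whose level in lymphatic 4 was low, and Iglc1, Iglc3, Ifi27l2a and Fth1 those whose level was high.

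Other lymphatic libraries were set off in fewer genes. Lymphatic 1 was lowest for Blk at 1.96 CPM, lymphatic 2 for Nfkb2 at 6.62 and Zc3h12d at 5.54, and lymphatic 3 for Alcam at 1.34 and Slc16a1 at 628. Lymphatic 2 also had the most genes detected, 25347, in the library with the most counts. In culture, culture 1 was set off as the highest for Cd72 at 442 and Csf1r at 11.1 CPM and as the lowest for Bach2 at 282 and Itga1 at 25.2. Culture 3 was highest for Jak1 at 235 CPM, and culture 4 lowest for Gss at 7.03 and S1pr1 at 74.6. The summed T cell marker level of culture 4, 6.91 CPM, was set off from the other culture libraries and far under every lymphatic library.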

How the results depend on the processing

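Counts of called genes depended on library weights, on single libraries, on the 4 remaining libraries of the fit and on the size of change tested. Against 1816 higher and 1753 lower genes, limma-voom with quality weights, which weighted every library, from 0.052 for lymphatic 4 to 5.26 for lymphatic 1, called 3345 and 3465. A test for changes beyond 1.5-fold (glmTreat) called 522 and 587. The fit of the 8 libraries alone, without the 4 of spread through the blood, called 1225 higher and 1375 lower, 19.8% of 13126 tested. With a replicate block, the fit of the 8 libraries called 641 higher and 901 lower. Same-numbered culture and lymphatic libraries had correlations of −0.181 to −0.110 in their deviations from the group means over 4 pairs, and not every library correlated best with its own number, so libraries share only a number. Leaving out 1 library gave 1317 to 2440 higher and 1341 to 2468 lower genes, with the highest counts without lymphatic 4. Leaving out lymphatic 4 and culture 4 together, an alternative chosen after seeing the data, gave 2063 and 2128. Upper-quartile scaling made 59.4% of the calls higher, against 50.9% with TMM, with 2227 higher and 1520 lower genes.

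Of 213 called genes that the naming rule chose, 213 were called in DESeq2, 179 with the replicate block, 146 by glmTreat and 196 in every fit that left out 1 library. Over all named genes and settings 5154 values kept direction and side of the threshold, 235 lost the call, 16 gained it and 3 changed sign. Atm, not called with all libraries, was 0.31 higher without lymphatic 4 and 0.36 higher without lymphatic 4 and culture 4. Ebp, also not called, was called lower by limma-voom with quality weights, at −0.29. The cause of these differences was not tested, apart from glmTreat, which by construction tests a larger change. Genes with 0 to 3 counts in culture have fitted changes that move with which culture library holds the counts. For some of them ratios of counts or bounds were given instead, and for the others only counts and CPM.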
